A study of Homo sapiens with 36 samples.

Results

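IGR37 melanoma cells were set under a pair of treatments that act on stearoyl-CoA desaturase (SCD) at different levels, a small molecule that blocks the enzyme and an siRNA that removes its mRNA, and the effects of both on each transcript were compared. The 12 libraries compared, of 36 in the series, are those of IGR37 in 4 groups of 3. Cells were given an SCD inhibitor, A93 in the sample titles, at 1 uM for 48 h (SCDi), or its vehicle DMSO. Other cells were transfected with the second SCD siRNA at 20 nM for 48 h (siSCD#2), or with a control siRNA at 20 nM for 48 h (siCTR). IGR37 is an established human melanoma cell line, and all 4 groups were grown in the same serum-containing medium. The inhibitor effect is SCDi minus DMSO, the siRNA effect is siSCD#2 minus siCTR, and the difference of effects is the inhibitor effect minus the siRNA effect. Both effects have controls of their own and share no library. The labels give 1 dose, 1 time and 1 siRNA per effect. They do not say whether libraries of a group came from separate cultures, so that p-values measure a spread between libraries only. That spread was pooled for each gene over 24 libraries, 12 of them of another melanoma line (501mel). Both effects of a gene therefore have the same SE.

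SCD places a double bond into saturated fatty acids, chiefly stearic and palmitic acid, and so sets how saturated the membrane lipids of a cell are. Membranes of the endoplasmic reticulum that become too saturated can set off the unfolded protein response. Its sensor PERK phosphorylates eIF2α and thereby raises translation of the transcription factor ATF4, which drives genes of amino acid supply, tRNA charging and stress. The sensor IRE1 splices XBP1 mRNA, and ATF6 is cleaved into an active factor, and both drive chaperones and degradation factors of the endoplasmic reticulum. MITF is the master transcription factor of pigment cells and sets the state of melanoma cells.

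The assay (QuantSeq Forward) reads 1 tag near the 3′ end of each transcript. The deposited values are log2 CPM, read counts scaled to an effective size of each library. That size was 0.920 to 0.965 times the recovered reads, spike-ins included, in the siSCD#2 libraries. It was 1.01 to 1.06 times with siCTR and 1.02 to 1.06 times with DMSO and SCDi. The 12 libraries held 4078450 to 6685898 reads in genes. Spiked-in control RNA took 5.05% to 7.21% of reads in the siSCD#2 libraries and 3.76% to 4.83% in the other 9. These are bulk samples, in which fewer cells of a kind and less RNA per cell cannot be told apart. The siSCD#2 libraries differed more among themselves than any other group, with a median SD per gene of 0.275 on the log2 scale against 0.160 to 0.169 in the other 3 IGR37 groups. The SE given for siRNA effects is pooled over groups and is not the spread of the siSCD#2 libraries alone. Of the 34 pigment cell genes listed all were measured, with a summed level of 7443 to 7852 CPM with SCDi, 11100 to 11370 CPM with DMSO, 8493 to 8733 CPM with siSCD#2 and 13030 to 13060 CPM with siCTR. Of 8 epithelial markers only KRT18 was measured, at no more than 0.609 CPM in any of the 12 libraries, and 3 of 10 blood and endothelial markers and 5 of 9 fibroblast markers were measured.

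SCD itself (chr10:100347124-100364834, plus strand, hg38) checked the labels and parted the arms. SCD stood at 10.37, 10.42 and 10.31 log2 CPM with SCDi and 9.77, 9.73 and 9.72 with DMSO, and at 6.52, 5.32 and 6.09 with siSCD#2 and 10.16, 10.16 and 10.05 with siCTR. The highest siSCD#2 library lay 3.54 log2 units below the lowest siCTR library, while every SCDi library lay above every DMSO library. The mRNA fell by 4.15 with siSCD#2 (SE 0.16, limma adjusted p = 1.29e-15), to 5.64% of the siCTR level in the group means. With the inhibitor it rose to 154% of the DMSO level (0.63 ± 0.16, adjusted p = 0.00215). Effects are given here and below as log2 differences ± SE, and a gene is called at a Benjamini-Hochberg adjusted p under 0.05 over all 13364 genes tested.

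In each arm more than 4 genes in 10 were called (44.1% and 45.9%). The inhibitor raised 2797 genes (20.9%) and lowered 3093 (23.1%), and siSCD#2 raised 3101 (23.2%) and lowered 3035 (22.7%). Of the 3281 genes called in both, 2225 (67.8%) went the same way and 1056 (32.2%) went opposite ways. The genes higher in both numbered 1064 (7.96% of those tested), which is 38.0% of the genes raised by the inhibitor and 34.3% of those raised by siSCD#2. The genes lower in both numbered 1161 (8.69%), or 37.5% and 38.3% of the genes that each lowered. Genes that rose with the inhibitor and fell with siSCD#2 were the fewest, at 392 (2.93%), which is 14% of the inhibitor's rises and 12.9% of the siRNA's falls. The reverse pattern held 664 genes (4.97%), or 21.5% of the inhibitor's falls and 21.4% of the siRNA's rises.

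The difference of effects was itself called in 2494 genes that were higher (18.7%) and 2694 that were lower (20.2%) in the inhibitor arm, 38.8% in all. All 1056 opposed genes are called there by the way they were chosen. Of the 2225 genes that went the same way, 1622 showed no called difference in size, and their 95% interval of the difference reached 0.43 to either side in the median gene. The other 603 differed in size: 172 rises and 174 falls were larger with the inhibitor, and 110 rises and 147 falls were larger with siSCD#2. Both effects reached at least 2-fold in 177 genes higher in both and 151 lower in both, and in 85 and 95 genes of the opposed patterns. Across the 13364 genes Pearson's r between the effects was 0.107 and Spearman's rho 0.155. In the 6682 genes at or above the median level they were 0.279 and 0.287. These are descriptions across genes, which are not independent and share the libraries of each arm.

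**Figure D1:**
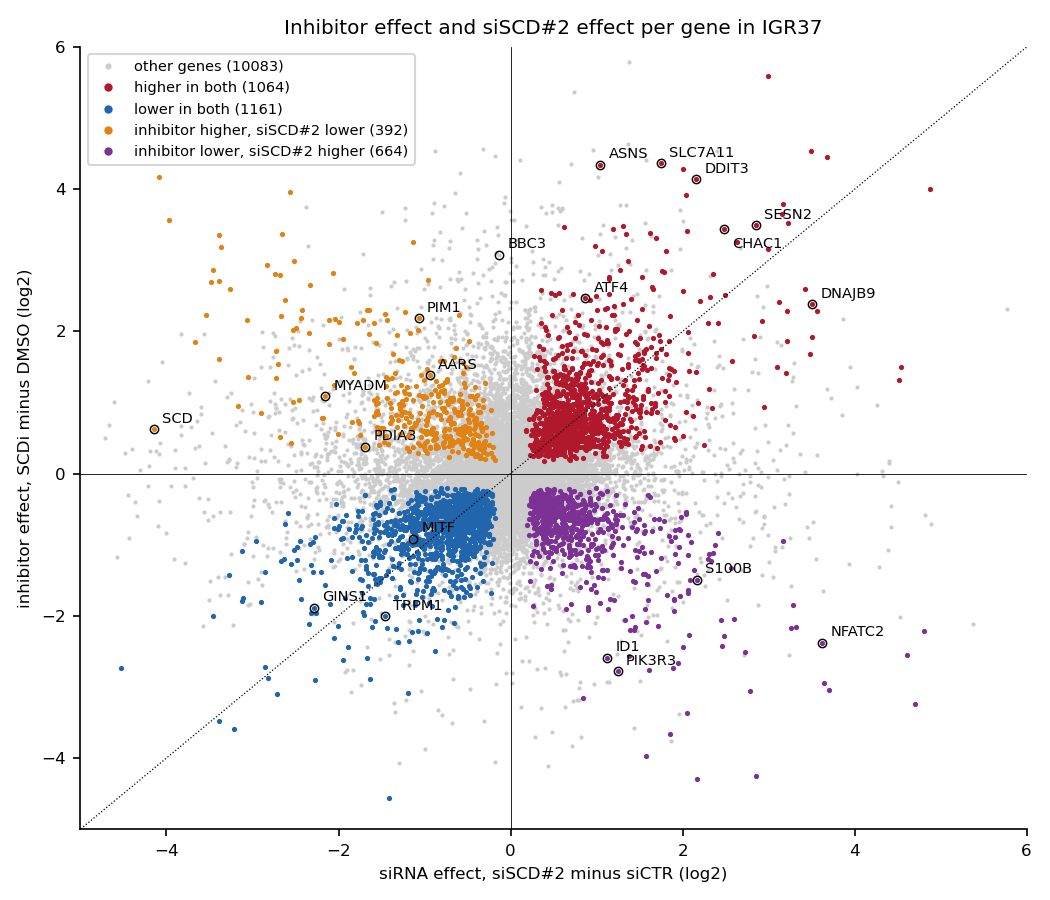
Inhibitor effect (SCDi minus DMSO, vertical axis) against siRNA effect (siSCD#2 minus siCTR, horizontal axis) for each gene in IGR37, both as log2 differences, with the 4 classes coloured and 7 genes outside the axes. The shared classes (1064 and 1161 genes) lie along the dotted line of equal effects, and SCD lies far to the left at 0.63 and -4.15.

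Stress genes were among the strongest shared rises. By the smaller of their effects, the 10 leading genes higher in both were SESN2, CHAC1, DNAJB9, DDIT3, RELB, ZC3H12C, HDAC9, SLC7A11, PNRC1 and PDCD4. CHAC1, an enzyme that degrades glutathione, stood at 6.47, 6.65 and 6.75 log2 CPM with SCDi and 3.18, 3.44 and 2.94 with DMSO, and at 6.04, 6.07 and 5.47 with siSCD#2 and 2.73, 3.66 and 3.74 with siCTR. The treated libraries lay 3.02 and 1.73 log2 units or more above every library of their own control. Its effects were 3.43 ± 0.24 with SCDi and 2.48 ± 0.24 with siSCD#2 (adjusted p = 1.58e-11 and 5.52e-09). SESN2, a sensor that restrains mTORC1, rose by 3.49 ± 0.15 with SCDi and 2.85 ± 0.15 with siSCD#2, and DDIT3, the stress factor CHOP, by 4.14 ± 0.15 with SCDi and 2.16 ± 0.15 with siSCD#2. DNAJB9, a cochaperone of the endoplasmic reticulum and IRE1 target, was the one of these 10 with the larger rise under siSCD#2 (2.38 ± 0.18 with SCDi and 3.51 ± 0.18 with siSCD#2; difference -1.13 ± 0.26, limma adjusted p = 0.00121). The difference was also called for CHAC1 (0.95 ± 0.34, limma adjusted p = 0.0272), SESN2 (adjusted p = 0.0219), DDIT3 (4.67e-08), RELB (0.000336), HDAC9 (0.0482) and SLC7A11 (7.21e-10), each with the larger rise under SCDi. For HDAC9, a histone deacetylase, it was lost without DMSO replicate 2 or 3, siSCD#2 replicate 3 or any 1 of the SCDi or siCTR libraries (0.74 to 1.11, adjusted p = 0.0553 to 0.165). For CHAC1 it was lost without DMSO replicate 3, SCDi replicate 3, siCTR replicate 2 or 3, or siSCD#2 replicate 3 (0.76 to 0.89, adjusted p = 0.0623 to 0.0894). For SESN2 it was lost without siCTR replicate 2 (0.52, adjusted p = 0.0728) or siSCD#2 replicate 3 (0.50, adjusted p = 0.0687). In other settings the HDAC9 difference was lost with 1 weight per group or centring on the median (adjusted p = 0.0637 and 0.0534). That of CHAC1 was lost with no variance trend, only the 12 IGR37 libraries or the replicate block (adjusted p = 0.0536 to 0.123). That of SESN2 was lost with the replicate block (adjusted p = 0.118).

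The PERK-ATF4 arm rose in both treatments and more with the inhibitor. Of 36 measured genes downstream of PERK and ATF4, 30 rose and 3 fell with SCDi (median effect 1.78, against 0 over all genes tested). With siSCD#2 21 rose and 7 fell (median 0.54). For this and the lists below, the shares over all genes tested are 20.9% higher and 23.1% lower with SCDi. With siSCD#2 they are 23.2% and 22.7%. The difference of effects was higher in 29 and lower in 2 (median 1.60, against 0.03 over all genes tested). Both treatments raised 19 of them, and 5 rose with SCDi and fell with siSCD#2. ATF4 itself (chr22:39519695-39522685, plus strand) stood at 10.06, 10.02 and 10.06 log2 CPM with SCDi and 7.54, 7.44 and 7.76 with DMSO, and at 9.31, 8.55 and 9.18 with siSCD#2 and 8.02, 8.26 and 8.18 with siCTR. Its groups did not overlap in either arm, and the SCDi libraries stood above the siSCD#2 libraries although DMSO stood below siCTR. The effects on ATF4 mRNA were 2.47 ± 0.14 with SCDi and 0.87 ± 0.14 with siSCD#2, with a difference of 1.60 ± 0.19, limma adjusted p = 3.5e-07.

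ASNS, asparagine synthetase, had a wider gap. It stood at 9.67, 9.69 and 9.58 log2 CPM with SCDi and 5.14, 5.47 and 5.29 with DMSO, and at 7.76, 6.83 and 7.49 with siSCD#2 and 6.26, 6.47 and 6.22 with siCTR. The effects were 4.34 ± 0.16 with SCDi and 1.04 ± 0.16 with siSCD#2, with a difference of 3.30 ± 0.23, limma adjusted p = 2.13e-11. The cystine carrier SLC7A11 had 4.36 with SCDi and 1.75 with siSCD#2. PHGDH, the first enzyme of serine synthesis, rose by 1.88 ± 0.11 with SCDi and had 0.01 ± 0.11 with siSCD#2 (adjusted p = 0.965). The 5 opposed members were SLC7A1, a carrier of basic amino acids (0.92 with SCDi and -0.77 with siSCD#2), PYCR1 of proline synthesis (1.30 with SCDi and -0.74 with siSCD#2), SHMT2 of mitochondrial glycine synthesis (1.03 with SCDi and -0.58 with siSCD#2), PSPH of serine synthesis (0.75 with SCDi and -0.73 with siSCD#2) and EIF4EBP1, an inhibitor of translation (1.28 with SCDi and -0.54 with siSCD#2).

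The cytosolic tRNA synthetases, which charge tRNAs with amino acids and include known ATF4 targets, rose mostly with SCDi. With SCDi 13 of 20 rose and 4 fell, against 20.9% and 23.1% of all genes tested. With siSCD#2 5 rose and 5 fell, near the shares over all genes tested (23.2% and 22.7%). Without siSCD#2 replicate 2 the siRNA's rises numbered 8 and the rises in both 7, and with the replicate block 3 fell with siSCD#2. Both treatments raised 4, among them CARS (1.90 with SCDi and 0.55 with siSCD#2) and MARS (2.08 with SCDi and 1.03 with siSCD#2), both lowered 2, among them FARSA (-0.69 with SCDi and -0.81 with siSCD#2), and AARS and DARS were opposed. AARS, which charges alanine, stood at 8.66, 8.61 and 8.86 log2 CPM with SCDi and 7.39, 7.25 and 7.35 with DMSO, and at 7.01, 7.08 and 6.69 with siSCD#2 and 7.70, 8.02 and 7.87 with siCTR. Every SCDi library was above every DMSO library, and every siSCD#2 library was below every siCTR library. The effects were 1.38 ± 0.12 with SCDi and -0.94 ± 0.12 with siSCD#2 (adjusted p = 9.69e-10 and 6.77e-07). WARS, which charges tryptophan, rose by 1.92 ± 0.10 with SCDi and had 0.12 ± 0.10 with siSCD#2 (adjusted p = 0.341).

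Promoter sequences of genes from these lists are shown because the same letters stand near the start of genes that moved together and genes that were opposed. Sequences are from RefSeq (GRCh38.p14), 5′ to 3′ on the strand of the gene, taken from windows of 250 bases before to 50 after the annotated start. Promoters were found for 10662 of the 13364 genes. Capitals mark the match to TTNCATCA, the letters of the ATF4-type composite element, searched on both strands. CHAC1 (chr15:40953232-40953299, plus strand), ASNS (chr7:97872439-97872506, minus strand) and MARS (chr12:57488034-57488101, plus strand) rose in both treatments. AARS (chr16:70289656-70289723, minus strand) and SLC7A1 (chr13:29595644-29595711, minus strand) were opposed.
CHAC1: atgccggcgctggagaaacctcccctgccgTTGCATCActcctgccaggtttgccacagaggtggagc
ASNS: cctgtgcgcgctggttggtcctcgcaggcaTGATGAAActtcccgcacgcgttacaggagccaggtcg
MARS: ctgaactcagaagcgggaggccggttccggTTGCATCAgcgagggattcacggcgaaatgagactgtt
AARS: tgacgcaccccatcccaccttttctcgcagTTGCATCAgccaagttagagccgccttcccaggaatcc
SLC7A1: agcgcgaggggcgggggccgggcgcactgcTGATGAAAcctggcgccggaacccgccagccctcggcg
The first capital lies 209, 68, 4 and 187 bases before the annotated start in CHAC1, ASNS, MARS and AARS, and 7 bases after it in SLC7A1. The motif is in 1.70% of the 10662 promoters, in 2.81% of 891 genes higher in both and in 2.61% of 306 genes that rose with SCDi and fell with siSCD#2. It is in 1.26% of 954 genes lower in both and in 1.44% of 554 genes that fell with SCDi and rose with siSCD#2. In the lists it is in 5 of 28 PERK-ATF4 genes and 5 of 13 tRNA synthetases.

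The chaperone and degradation genes driven by IRE1-XBP1 and ATF6 rose more widely with the inhibitor. Of 24 measured, 22 rose and 1 fell with SCDi (median 0.82), and 10 rose and 3 fell with siSCD#2 (median 0.26). Without siSCD#2 replicate 2, or under quantile normalization, 5 fell with siSCD#2. The difference was higher in 15 and lower in 1, DNAJB9. HERPUD1, which helps export proteins for degradation, had 3.37 ± 0.08 with SCDi and 1.34 ± 0.08 with siSCD#2, HSPA5, the main chaperone of the endoplasmic reticulum, 2.07 ± 0.09 with SCDi and 0.65 ± 0.09 with siSCD#2, and XBP1 1.61 ± 0.08 with SCDi and 0.49 ± 0.08 with siSCD#2. The HSPA5 promoter (chr9:125241361-125241439, minus strand) holds the letters of the endoplasmic reticulum stress element, CCAAT and CCACG separated by 9 bases, shown in capitals.
HSPA5: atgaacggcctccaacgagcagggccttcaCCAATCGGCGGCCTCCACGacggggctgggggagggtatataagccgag
That motif is in 14 of the 10662 promoters, in 6 of 22 promoters of this list, in 5 of 891 genes higher in both and in 1 of 954 lower in both, and in none of the 306 and 554 genes of the opposed patterns.

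PDIA3, a disulfide isomerase of glycoprotein folding, was 1 of 2 opposed members of that list. It (chr15:43746392-43773279, plus strand) stood at 8.26, 8.33 and 8.32 log2 CPM with SCDi and 7.91, 7.98 and 7.89 with DMSO, and at 6.22, 6.20 and 5.92 with siSCD#2 and 7.85, 7.76 and 7.80 with siCTR. The fall under siSCD#2 was the larger part of its difference (0.38 ± 0.10 with SCDi and -1.69 ± 0.10 with siSCD#2; difference 2.07 ± 0.15, limma adjusted p = 4.2e-11). CALR, a calcium-binding chaperone, fell in both (-0.39 with SCDi and -0.36 with siSCD#2).

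NF-kB and immediate early genes followed the inhibitor more than the siRNA. Of 20 measured NF-kB and inflammatory genes, 14 rose and 1 fell with SCDi, against 20.9% and 23.1% of all genes tested. With siSCD#2 8 rose and 2 fell, against 23.2% and 22.7%. RELB, a subunit of the noncanonical pathway, rose by 3.42 ± 0.20 with SCDi and 2.05 ± 0.20 with siSCD#2, and CXCL8, the chemokine interleukin-8, by 4.53 ± 0.33 with SCDi and 3.49 ± 0.33 with siSCD#2. NFKB1, the precursor of p50, was opposed (0.87 ± 0.14 with SCDi and -0.65 ± 0.14 with siSCD#2). TNFAIP3, an inhibitor of the pathway, was opposed (1.06 with SCDi and -0.41 with siSCD#2), but its fall under siSCD#2 was lost without siCTR replicate 1 (-0.32, adjusted p = 0.0863). That fall was also lost with 1 weight per group, the replicate block or voom (-0.42 to -0.39, adjusted p = 0.0553 to 0.0881). Of 20 AP-1 and immediate early genes, 15 rose and 1 fell with SCDi, and 9 rose and 3 fell with siSCD#2. JUN rose by 3.47 ± 0.12 with SCDi and 0.62 ± 0.12 with siSCD#2, whereas EGR1 rose more with siSCD#2 (0.94 ± 0.18 with SCDi and 2.95 ± 0.18 with siSCD#2).

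Genes of DNA replication and mitosis fell under both treatments. Of 33 replication genes, 31 fell with SCDi (median -1.08), and 23 fell and 1 rose with siSCD#2 (median -0.75). The 23 that fell with siSCD#2 also fell with SCDi. Of 30 genes of G2 and mitosis, 19 fell with SCDi (median -0.36) and 26 with siSCD#2 (median -0.63), 18 of them in both. The difference was lower in 16 and higher in 4 of the replication genes, and higher in 12 and lower in 1 of the mitosis genes.

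GINS1, a subunit of the replicative helicase complex, led the genes lower in both. It stood at 4.92, 5.15 and 5.06 log2 CPM with SCDi and 6.99, 6.88 and 6.92 with DMSO, and at 4.54, 4.80 and 4.61 with siSCD#2 and 6.88, 6.97 and 6.98 with siCTR. The groups did not overlap in either arm, and the effects were -1.89 ± 0.14 with SCDi and -2.29 ± 0.14 with siSCD#2, with a difference of 0.40 ± 0.20 (95% interval -0.00 to 0.81, adjusted p = 0.109). The difference was called with only the 12 IGR37 libraries in the fit (0.40, adjusted p = 0.0242) and with the replicate block (0.38, adjusted p = 0.0488). RRM2, the small subunit of ribonucleotide reductase, fell more with SCDi (-1.72 ± 0.07 with SCDi and -0.62 ± 0.07 with siSCD#2; difference -1.11 ± 0.10, limma adjusted p = 6e-09), as did thymidylate synthase TYMS (-1.50 with SCDi and -0.57 with siSCD#2). E2F1, the factor of S phase entry, fell more with siSCD#2 (-0.99 ± 0.13 with SCDi and -2.33 ± 0.13 with siSCD#2; difference 1.34 ± 0.19, limma adjusted p = 2.58e-06), as did the mitotic survivin gene BIRC5 (-0.70 with SCDi and -1.54 with siSCD#2). CCNE1, cyclin E1, fell with SCDi (-1.97 ± 0.14) and had -0.19 ± 0.14 with siSCD#2 (adjusted p = 0.285). The other leading genes lower in both were MRPL12, CERK, TSPAN10, SIRPA, CENPB, TRPM1, TMEM201, MYBL2 and RPS6KA4, with a smaller effect between -1.67 (MRPL12) and -1.38 (RPS6KA4). CERK, ceramide kinase, had -1.53 with SCDi and -1.52 with siSCD#2 and a difference of -0.01 (95% interval -0.27 to 0.25).

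MITF (chr3:69739435-69968337, plus strand) fell under both treatments. It stood at 8.19, 8.11 and 8.26 log2 CPM with SCDi and 9.02, 9.12 and 9.16 with DMSO, and at 8.20, 8.32 and 8.22 with siSCD#2 and 9.43, 9.36 and 9.34 with siCTR. Treated and control libraries were apart in both arms, and the SCDi and siSCD#2 libraries overlapped. The effects were -0.92 ± 0.08 with SCDi and -1.13 ± 0.08 with siSCD#2 (adjusted p = 9.74e-10 and 2.45e-11), and the difference was 0.22 ± 0.11 (95% interval -0.02 to 0.45, adjusted p = 0.136). Under quantile normalization the difference was called (0.45, adjusted p = 0.00639).

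The genes of pigment cell differentiation did not move as a block with MITF. Of 34 measured, 23 fell and 1 rose with SCDi, against 23.1% and 20.9% of all genes tested. With siSCD#2 15 fell and 11 rose, against 22.7% and 23.2%. Both lowered 12, among them TRPM1, an ion channel gene of melanocytes (-2.003 with SCDi and -1.46 with siSCD#2), the transporter SLC45A2 (-1.03 with SCDi and -1.03 with siSCD#2) and dopachrome tautomerase DCT (-1.15 with SCDi and -1.59 with siSCD#2). TYRP1, a melanosome enzyme, fell more with siSCD#2 (-0.35 ± 0.07 with SCDi and -1.36 ± 0.07 with siSCD#2; difference 1.02 ± 0.10, limma adjusted p = 1.4e-08). Both raised PAX3, a factor upstream of MITF (0.60 with SCDi and 1.37 with siSCD#2). Opposed were 7 members, all with the inhibitor lower, among them tyrosinase TYR (-1.10 with SCDi and 0.82 with siSCD#2), the exchanger SLC24A5 (-1.005 with SCDi and 0.68 with siSCD#2), S100B, MC1R, the endothelin receptor EDNRB and GPNMB. TYR, the rate-limiting enzyme of melanin synthesis, stood at 6.76, 6.93 and 6.94 log2 CPM with SCDi and 7.97, 7.99 and 7.97 with DMSO, and at 8.59, 8.98 and 8.61 with siSCD#2 and 7.87, 7.99 and 7.88 with siCTR. Its groups were apart in both arms, in opposite directions. AXL, a receptor of the dedifferentiated melanoma state, had 9 reads over the SCDi libraries, 6 over DMSO, 6 over siSCD#2 and 0 over siCTR, too few for a fold. Its siRNA effect was not called (adjusted p = 0.0788), except without siSCD#2 replicate 3 (adjusted p = 0.0115) and with the replicate block (0.0346).

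**Figure D2:**
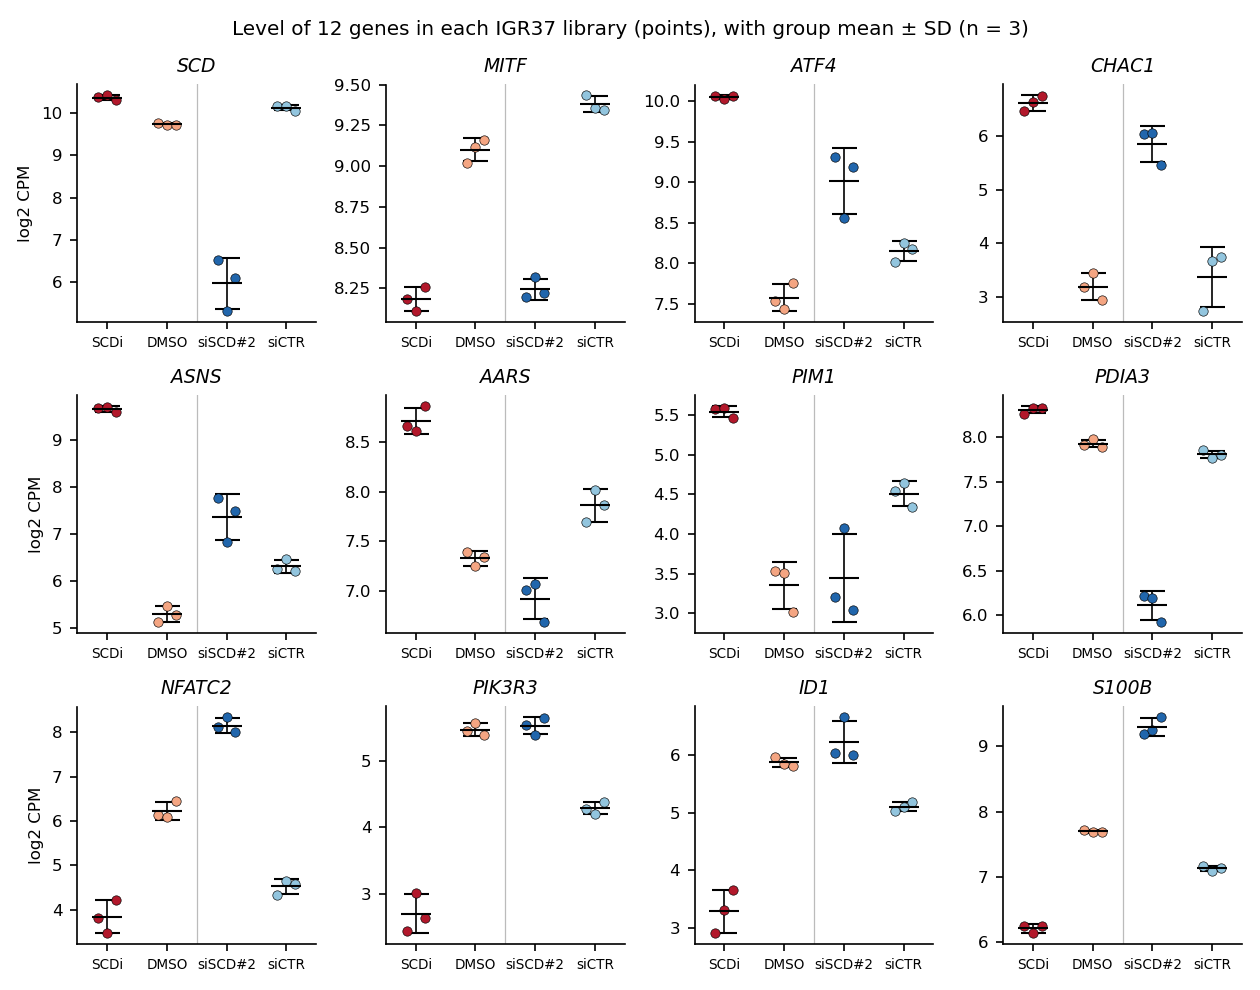
Level of 12 genes in every IGR37 library in log2 CPM (points), with the group mean and SD (n = 3), in the order SCDi, DMSO, siSCD#2 and siCTR. MITF falls to overlapping levels under both treatments, SCD and PDIA3 fall with siSCD#2 and are higher with SCDi, and NFATC2, PIK3R3, ID1 and S100B fall with SCDi and rise with siSCD#2.

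Among genes that rose with the inhibitor and fell with siSCD#2, the 10 with the largest differences, at or above the median level of the table, were SCD, AZIN2, PIM1, MYADM, TNNT1, LARP6, FAM131A, HIPK2, SERINC2 and OCRL. PIM1, a serine/threonine kinase of survival signalling, stood at 5.58, 5.59 and 5.47 log2 CPM with SCDi and 3.54, 3.51 and 3.01 with DMSO, and at 3.21, 4.07 and 3.04 with siSCD#2 and 4.54, 4.65 and 4.34 with siCTR. Its siSCD#2 libraries spread over 1.03 log2 units, but all lay below every siCTR library. The effects were 2.19 ± 0.21 with SCDi and -1.07 ± 0.21 with siSCD#2, with a difference of 3.26 ± 0.29, limma adjusted p = 2.1e-09. MYADM, a membrane protein gene, fell with siSCD#2 by more than it rose with SCDi (1.09 ± 0.14 with SCDi and -2.16 ± 0.14 with siSCD#2), as did TNNT1, a troponin gene (0.78 with SCDi and -2.20 with siSCD#2), HIPK2, a nuclear kinase (0.56 with SCDi and -2.004 with siSCD#2), and OCRL, an inositol phosphatase (0.72 with SCDi and -1.77 with siSCD#2). AZIN2, a regulator of polyamine synthesis (1.95 with SCDi and -1.33 with siSCD#2), and LARP6, an RNA-binding protein gene (2.24 with SCDi and -0.60 with siSCD#2), rose with SCDi by more than they fell with siSCD#2. The inhibitor's rise of SERINC2 (0.72 ± 0.29, adjusted p = 0.0456) was lost without DMSO replicate 1 or 2, any 1 of the SCDi libraries, or siCTR replicate 2 (0.62 to 0.81, adjusted p = 0.0532 to 0.141), and that of HIPK2 with only the 12 IGR37 libraries in the fit (adjusted p = 0.0624).

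CD68, a lysosomal protein on the list of blood cell markers, was also of this pattern (2.16 with SCDi and -1.72 with siSCD#2). It carried most of the summed level of that list, 47.3 to 62.4 CPM with SCDi, 11.2 to 17.6 CPM with DMSO, 4.73 to 7.26 CPM with siSCD#2 and 14.6 to 17.7 CPM with siCTR. The part of other cells in this was not tested. From the other lists, PPARA, a nuclear receptor of fatty acid oxidation, was opposed in the same direction (1.23 ± 0.15 with SCDi and -1.09 ± 0.15 with siSCD#2), and so was MAP1LC3B, the autophagosome protein LC3B (1.03 ± 0.09 with SCDi and -0.32 ± 0.09 with siSCD#2). PPARGC1A, the coactivator of mitochondrial biogenesis, fell by 2.55 with siSCD#2, while its rise of 0.44 ± 0.16 with SCDi was lost without DMSO replicate 3 or SCDi replicate 1 or 2 (0.31 to 0.42, adjusted p = 0.0642 to 0.150). That rise was also lost with only the 12 IGR37 libraries in the fit, without and with the replicate block (0.44, adjusted p = 0.0947 and 0.0771).

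Among genes that fell with the inhibitor and rose with siSCD#2, the 10 with the largest differences were NFATC2, PIK3R3, PI15, MARCKSL1, ID1, TMX4, S100B, ITGA6, CHL1 and NCALD. NFATC2 (chr20:51386957-51562831, minus strand), a calcium-regulated transcription factor, stood at 3.82, 3.49 and 4.23 log2 CPM with SCDi and 6.12, 6.09 and 6.46 with DMSO, and at 8.11, 8.33 and 7.99 with siSCD#2 and 4.34, 4.66 and 4.58 with siCTR. The nearest libraries of treated and control groups were 1.86 log2 units apart with SCDi and 3.34 with siSCD#2. The effects were -2.38 ± 0.19 with SCDi and 3.62 ± 0.19 with siSCD#2, with a difference of -5.997 ± 0.27, limma adjusted p = 1.11e-14. PIK3R3, a regulatory subunit of phosphoinositide 3-kinase, stood at 2.44, 3.02 and 2.63 log2 CPM with SCDi and 5.45, 5.58 and 5.40 with DMSO, and at 5.55, 5.40 and 5.66 with siSCD#2 and 4.28, 4.21 and 4.38 with siCTR. Here the siSCD#2 libraries reached the DMSO level and the siCTR libraries stood below it. The effects were -2.78 ± 0.13 with SCDi and 1.25 ± 0.13 with siSCD#2.

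S100B, a calcium-binding protein that serves as a melanoma marker, stood at 6.24, 6.14 and 6.24 log2 CPM with SCDi and 7.72, 7.68 and 7.69 with DMSO, and at 9.19, 9.25 and 9.44 with siSCD#2 and 7.17, 7.09 and 7.13 with siCTR. The siSCD#2 libraries were the highest of all 12 and the SCDi libraries the lowest (-1.49 ± 0.09 with SCDi and 2.16 ± 0.09 with siSCD#2). MARCKSL1, an actin regulator, had -2.56 ± 0.09 with SCDi and 1.38 ± 0.09 with siSCD#2, the laminin receptor subunit ITGA6 -1.13 ± 0.12 with SCDi and 2.30 ± 0.12 with siSCD#2, and the adhesion gene CHL1 -1.003 ± 0.11 with SCDi and 2.38 ± 0.11 with siSCD#2. SPARC, a matrix glycoprotein, had -1.01 ± 0.07 with SCDi and 1.06 ± 0.07 with siSCD#2. FN1, fibronectin, rose by 1.62 ± 0.10 with siSCD#2, and its fall of 0.33 with SCDi was lost without SCDi replicate 1 (-0.28, adjusted p = 0.0551). The 5 measured fibroblast markers (COL1A1, DCN, FAP, LUM and PDGFRA) summed to 8.51 to 11.8 CPM with SCDi, 26.4 to 28.4 CPM with DMSO, 32.6 to 36.3 CPM with siSCD#2 and 20.1 to 27.1 CPM with siCTR, the direction of SPARC and FN1. Their part in the result was not tested. COL1A1, a collagen chain among them, was called lower in both (-2.31 with SCDi and -2.05 with siSCD#2), but at a level too low for a fold. Its siSCD#2 libraries all held the same value (range 0.0), and the nearest treated and control libraries met in both arms (gap 0.0). With a pseudocount of 1 the effects were -0.36 with SCDi and -0.31 with siSCD#2, neither called (limma adjusted p = 0.196 and 0.264). The fall of COL1A1 was also lost without DMSO replicate 1 or 3 (adjusted p = 0.102 and 0.158) in the inhibitor arm. In the siRNA arm it was lost without siCTR replicate 2 or 3 or any 1 of the siSCD#2 libraries (0.0667 to 0.309).

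ID1, ID2 and ID3, inhibitors of differentiation that respond to BMP signals, were opposed. ID1 stood at 2.91, 3.31 and 3.65 log2 CPM with SCDi and 5.97, 5.85 and 5.82 with DMSO, and at 6.04, 6.66 and 6.001 with siSCD#2 and 5.04, 5.10 and 5.19 with siCTR. All 3 SCDi libraries lay 2.16 log2 units or more below DMSO, and all 3 siSCD#2 libraries lay above siCTR. The effects were -2.59 ± 0.15 with SCDi and 1.13 ± 0.15 with siSCD#2 for ID1, -2.21 ± 0.30 with SCDi and 1.39 ± 0.30 with siSCD#2 for ID2 and -1.91 ± 0.08 with SCDi and 1.13 ± 0.08 with siSCD#2 for ID3. In the TGF-beta and BMP list, 5 of 14 fell and 1 rose with SCDi, against 23.1% and 20.9% of all genes tested. With siSCD#2 8 rose and 2 fell, against 23.2% and 22.7%. The difference was lower in 8 of the 14. Under quantile normalization 8 fell with SCDi, and 6 in place of 3 members fell with SCDi and rose with siSCD#2. ID4, the fourth ID gene, had -0.70 with SCDi and 0.93 with siSCD#2 (adjusted p = 0.126 and 0.0396). Its rise was lost without siCTR replicate 3 (0.55, adjusted p = 0.259) or siSCD#2 replicate 3 (0.73, adjusted p = 0.151), and a fall with SCDi was called without DMSO replicate 2 (-0.99, adjusted p = 0.0493) or SCDi replicate 2 (-1.03, adjusted p = 0.0372). SMAD7, an inhibitor of TGF-beta signalling, had -0.81 with SCDi and 1.53 with siSCD#2, of which the rise was called, but not without siCTR replicate 1 (1.06, adjusted p = 0.0764).

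Among genes of oxidative phosphorylation, the medians of the effects had opposite signs. With SCDi 16 of 30 fell (median -0.42), and with siSCD#2 16 rose and 3 fell (median 0.30). The difference was lower in 23 and higher in 1. Called in both and opposed were 7, among them NDUFV2 of complex I and COX5B and COX7A2 of complex IV. The count was 4 under quantile normalization and 5 to 8 with 1 library left out. COX5B had -0.56 ± 0.09 with SCDi and 0.55 ± 0.09 with siSCD#2. Both treatments lowered ATP5G1, a subunit of the ATP synthase (-1.63 with SCDi and -0.77 with siSCD#2). Of 32 genes of cytosolic ribosomal proteins, whose processed pseudogenes may share reads with them, 12 rose and 1 fell with SCDi and 24 rose with siSCD#2 (15 under quantile normalization).

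Cholesterol genes rose with siSCD#2 and split under the inhibitor. With siSCD#2 17 of 24 rose and 1 fell (median 0.88), against 23.2% and 22.7% of all genes tested. With SCDi 9 rose and 6 fell (median 0.17), against 20.9% and 23.1%. Without SCDi replicate 2, or with only the 12 IGR37 libraries in the fit, 5 rose with SCDi. FDFT1, squalene synthase, stood at 7.93, 7.98 and 7.86 log2 CPM with SCDi and 8.49, 8.42 and 8.46 with DMSO, and at 9.21, 9.21 and 9.08 with siSCD#2 and 8.43, 8.50 and 8.46 with siCTR. The groups were apart in both arms, in opposite directions (-0.53 ± 0.07 with SCDi and 0.70 ± 0.07 with siSCD#2; difference -1.24 ± 0.09, limma adjusted p = 1.01e-10). MVK and MSMO1, other enzymes of the pathway, were also opposed (-0.77 with SCDi and 1.04 with siSCD#2; -0.59 with SCDi and 0.44 with siSCD#2). HMGCS1, which makes HMG-CoA, rose by 2.25 ± 0.13 with siSCD#2, while its rise of 0.40 ± 0.13 with SCDi was lost without SCDi replicate 1 or 2 (0.35 and 0.36, adjusted p = 0.0675 and 0.0593). That rise was also lost with only the 12 IGR37 libraries in the fit, without and with the replicate block (0.40, adjusted p = 0.0527 and 0.0510).

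In the pathway of SCD itself, fatty acid synthesis and desaturation, 2 of 19 measured genes were higher in both, against 7.96% of all genes tested. Of the 19, 5 rose and 7 fell with SCDi, against 20.9% and 23.1% of all genes tested. With siSCD#2 5 rose and 4 fell, near the shares over all genes tested (23.2% and 22.7%). The siRNA's rises numbered 3 without siCTR replicate 3 or siSCD#2 replicate 1. The elongase ELOVL5 fell with SCDi and rose with siSCD#2 (-0.48 ± 0.08 with SCDi and 0.72 ± 0.08 with siSCD#2). The desaturase FADS2 had 0.39 with SCDi and -1.23 with siSCD#2 and was not among the opposed genes. SCD5, the other human stearoyl-CoA desaturase gene, had -0.61 with SCDi and -0.43 with siSCD#2 (adjusted p = 0.0109 and 0.0627). The fall of SCD5 with SCDi was lost without SCDi replicate 2 (-0.49, adjusted p = 0.0645), and one with siSCD#2 was called without siCTR replicate 2 (-0.53, adjusted p = 0.0478) or siSCD#2 replicate 3 (-0.55, adjusted p = 0.0373). Of 24 phospholipid genes 13 fell and 1 rose with SCDi, and 6 fell and 4 rose with siSCD#2, with all 6 of those falls shared. LPCAT3, which places polyunsaturated chains into phospholipids, fell more with siSCD#2 (-0.78 ± 0.19 with SCDi and -2.01 ± 0.19 with siSCD#2; difference 1.23 ± 0.27, limma adjusted p = 0.00076).

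**Figure D3:**
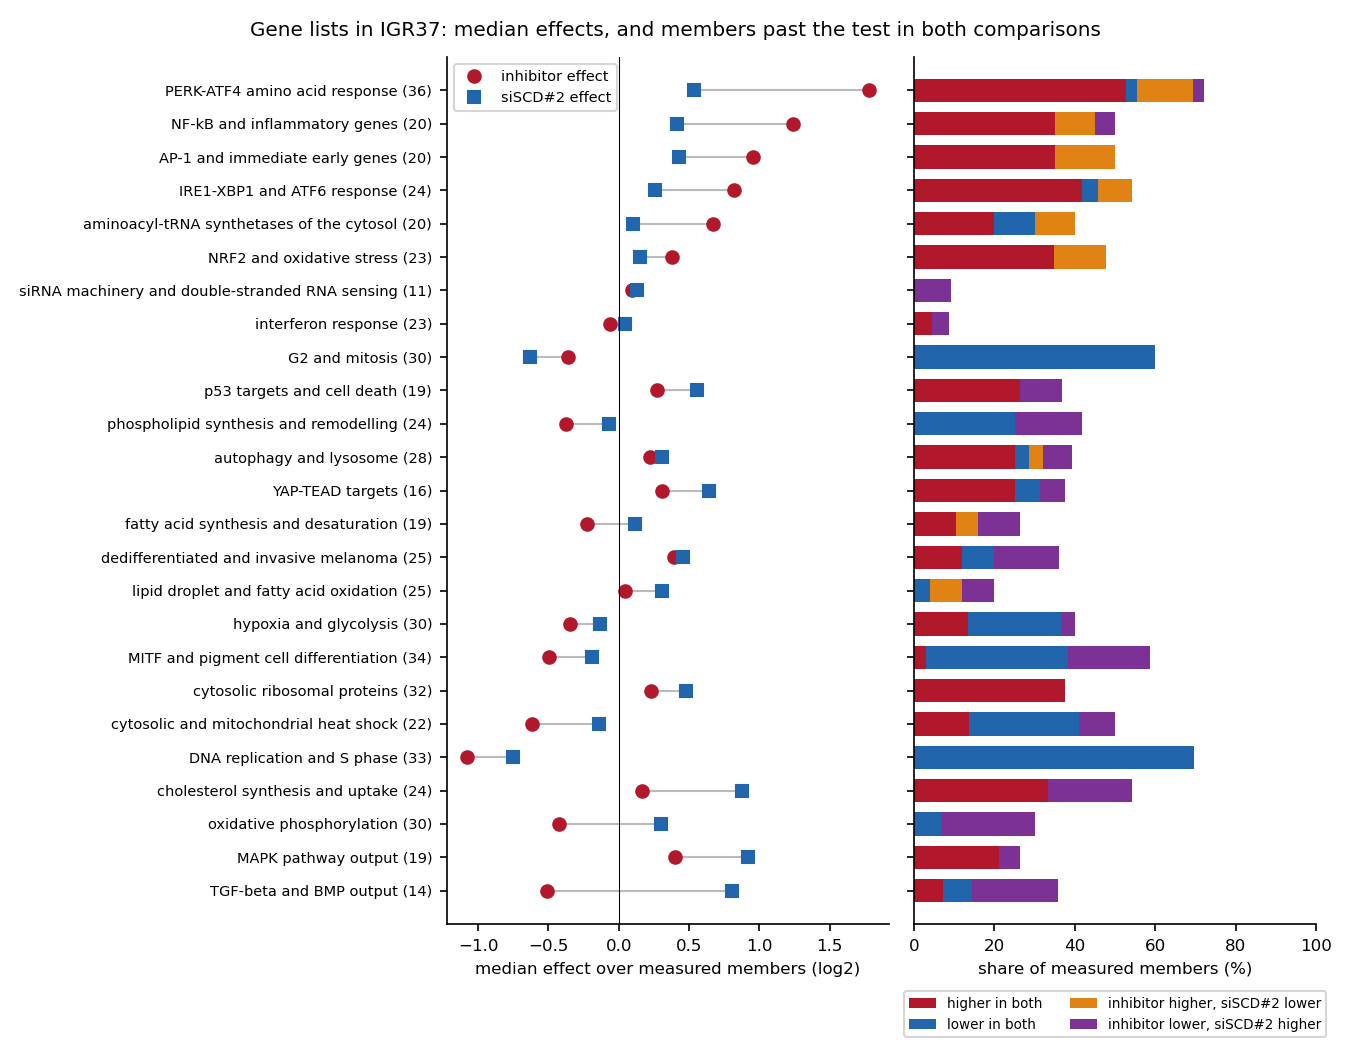
Gene lists with at least 10 measured members (number in brackets), ordered by the median difference of effects. The left panel shows the median inhibitor effect and siRNA effect over members (log2), and the right panel the share of members called in both and in which directions. The PERK-ATF4 medians are 1.78 and 0.54, and those of oxidative phosphorylation lie on either side of 0.

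In some of the largest differences only 1 of the effects was large, each taken against its own control. On the inhibitor's side stood BBC3, the p53-linked cell death gene PUMA, at 7.45, 7.65 and 7.70 log2 CPM with SCDi and 4.58, 4.82 and 4.16 with DMSO, and at 5.60, 5.99 and 5.44 with siSCD#2 and 5.78, 5.87 and 5.78 with siCTR. Its siSCD#2 and siCTR libraries overlapped (3.08 ± 0.17 with SCDi and -0.13 ± 0.17 with siSCD#2, adjusted p = 1.51e-13 and 0.546; difference 3.21 ± 0.23, limma adjusted p = 6.32e-11). Every DMSO library of BBC3 lay below every siCTR library, and the part of this in its difference was not tested. RCAN1, a calcineurin regulator, rose with both but mostly with SCDi (2.58 ± 0.07 with SCDi and 0.36 ± 0.07 with siSCD#2). Of the 13364 genes tested, 771 rose and 827 fell with the inhibitor, with a called difference and no call under siSCD#2. A missing call does not mean that there was no effect.

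On the siRNA's side, 838 of the 13364 genes rose and 891 fell with a called difference and no call under the inhibitor. TFAP2C, a transcription factor of the AP-2 family, stood at 6.82, 6.73 and 6.75 log2 CPM with SCDi and 7.07, 6.94 and 6.85 with DMSO, and at 8.84, 8.33 and 9.01 with siSCD#2 and 5.85, 5.90 and 5.69 with siCTR. Every siSCD#2 library was 2.43 log2 units or more above every siCTR library, while the effects were -0.19 ± 0.17 with SCDi and 2.91 ± 0.17 with siSCD#2 (adjusted p = 0.384 and 6.31e-13). Every siCTR library of TFAP2C lay below every DMSO library, and the part of this in its difference was not tested. CCND1, cyclin D1, rose by 1.99 ± 0.18 with siSCD#2. Its inhibitor effect of -0.29 ± 0.18 (adjusted p = 0.193) was called only without siSCD#2 replicate 2 (-0.29, adjusted p = 0.0307). RGS1, a regulator of G protein signalling, had 0.00 ± 0.17 with SCDi and 2.11 ± 0.17 with siSCD#2. PLXND1, a semaphorin receptor, and RTN4R, the Nogo receptor, fell with siSCD#2 (-0.14 ± 0.21 with SCDi and -2.64 ± 0.21 with siSCD#2; 0.05 ± 0.20 with SCDi and -2.44 ± 0.20 with siSCD#2). PRKCB, protein kinase C beta, fell by 2.20 with siSCD#2 and had 0.24 ± 0.10 with SCDi (adjusted p = 0.0531), which was called without any 1 of the siSCD#2 libraries (adjusted p = 0.0457 to 0.0482) and in 7 of the other settings (0.0111 to 0.0499).

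The 2 control groups were not at the same level. With siCTR set against DMSO, 863 genes were higher (6.46%) and 1202 lower (8.99%). Without siCTR replicate 3 there were 567 higher. This contrast uses the control libraries of both effects, so its gene calls are not set against them here. The levels of the 4 classes relative to DMSO are given side by side. In the genes that rose with the inhibitor and fell with siSCD#2, the median gene stood at 0.76 with SCDi, at -0.41 with siSCD#2 and at 0.46 with siCTR. In those that fell with the inhibitor and rose with siSCD#2 it stood at -0.67, 0.275 and -0.38 in the same order. In the genes higher in both it stood at 0.76, 0.73 and -0.06, and in those lower in both at -0.73, -0.72 and -0.003. The siSCD#2 mean lay beyond DMSO, away from SCDi, in 333 of the 392 and 524 of the 664 opposed genes. The siSCD#2 and DMSO values entered the choice of these genes, so the counts are no separate evidence that the effects oppose. Since the classes were chosen with both controls, how far the controls' levels shape the opposed classes was not tested.

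**Figure D4:**
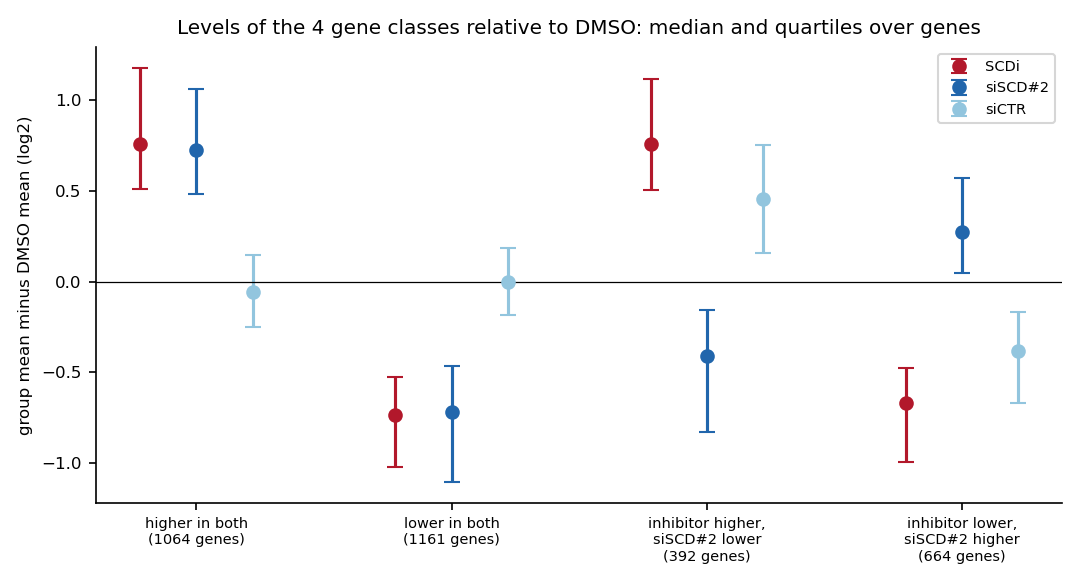
Group means minus the DMSO mean (log2) for the 4 gene classes, as the median and quartiles over genes, for SCDi, siSCD#2 and siCTR. The siCTR level lies near 0 in the shared classes and on the side of SCDi in the opposed classes (0.46 and -0.38). The classes were chosen with both controls, so these positions follow in part from that choice.

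A different siRNA against SCD, siSCD#1, was tested in IGR37 in a table of its own, with its own control (siCTR_1) and 3 libraries of each at 20 nM and 48 h. None of these libraries was used to form the classes. The tables were normalized separately, so only effects within each table are compared, over the 12896 genes of both, of which siSCD#1 raised 16.8% and lowered 19.6%. Genes higher in both rose with siSCD#1 in 675 and fell in 19 of 1060 (63.7% and 1.79%). Genes lower in both fell in 785 and rose in 20 of 1158 (67.8% and 1.73%). Among the opposed genes, siSCD#1 calls in the inhibitor's direction outnumbered those in the direction of siSCD#2. Of 383 genes that rose with the inhibitor and fell with siSCD#2, siSCD#1 raised 134 (35.0%) and lowered 34 (8.88%), with a median effect of 0.24. Of 661 that fell with the inhibitor and rose with siSCD#2, it lowered 195 (29.5%) and raised 85 (12.9%), with a median of -0.14.

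Single genes show the same split. siSCD#1 lowered SCD by 2.67 and raised AARS by 0.69, PYCR1 by 0.88 and PIM1 by 0.75. It lowered PIK3R3 by 1.29, ID1 by 0.68 and MARCKSL1 by 0.71, while S100B had -0.01 and TYR -0.01, neither called. Of the 10 leading genes that rose with SCDi and fell with siSCD#2, siSCD#1 raised 5, lowered SCD and left 4 uncalled. Of the 10 of the reverse pattern it lowered 6, raised TMX4 and left 3 uncalled. All 10 leading genes higher in both rose with it, and 8 of the 10 lower in both fell, the exceptions being CERK and SIRPA. MITF fell by 0.33 with siSCD#1. Replication genes fell in all 33 and mitosis genes in all 30. Oxidative phosphorylation genes fell in 25 of 30, the inhibitor's direction, while among 24 cholesterol genes 9 fell and 3 rose.

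The same second siRNA in 501mel, another melanoma line, raised 2447 of all genes (18.3%) and lowered 2612 (19.5%), 37.9% in all. Its calls in the direction that siSCD#2 took in IGR37 outnumbered those against it in all 4 classes. Of the 392 genes that rose with the inhibitor and fell with siSCD#2 in IGR37, it lowered 167 (42.6%) and raised 33 (8.42%) in 501mel. Of the 664 of the reverse pattern it raised 244 (36.7%) and lowered 68 (10.2%). Genes higher in both in IGR37 rose in 584 (54.9%) and fell in 44 (4.14%), and genes lower in both fell in 724 (62.4%) and rose in 22 (1.89%). The inhibitor called 31 genes higher (0.232%) and 8 lower (0.0599%) in 501mel, so the classes could not be followed there.

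**Figure D5:**
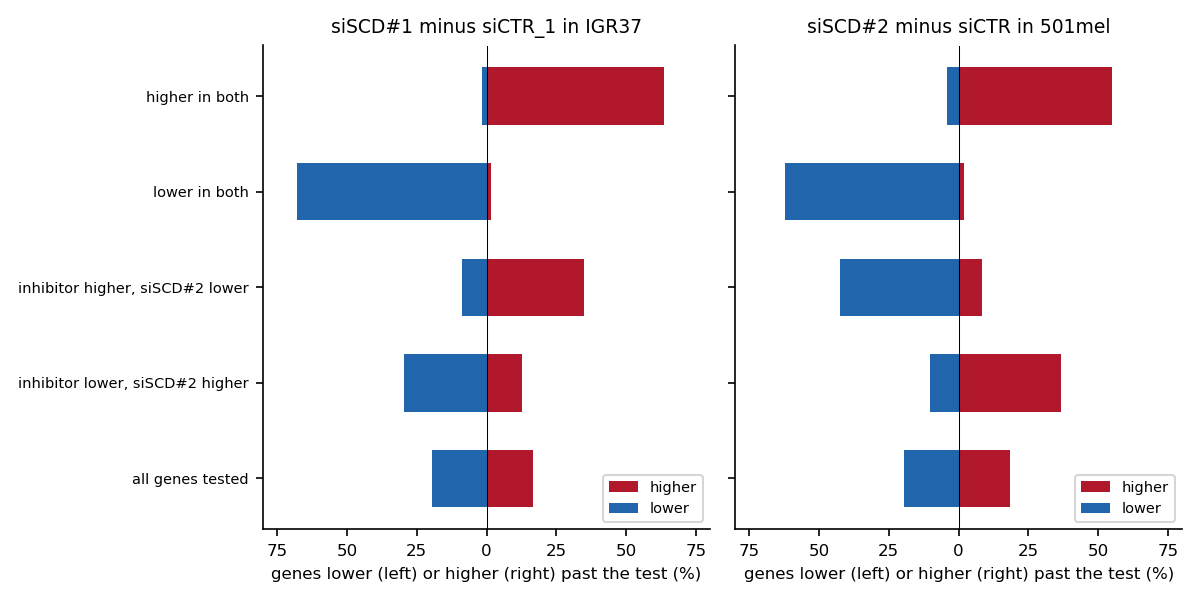
Share of genes of each IGR37 class that were higher (right) or lower (left) past the test with siSCD#1 in IGR37 and with siSCD#2 in 501mel, beside all genes tested. The opposed classes lean to the inhibitor's side with siSCD#1 (35.0% against 8.88%) and to the siSCD#2 side in 501mel (42.6% against 8.42%).

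Over 21 alternative settings of the fit, 546 of the 1064 genes higher in both, 653 of the 1161 lower in both, 173 of the 392 and 371 of the 664 opposed genes held their class in each one. A stricter filter, among these settings, kept 11388 genes. The genes it left out were not refitted there and count here as not holding their class. Leaving out 1 library at a time, 605, 723, 193 and 410 held it in all 12 fits. With 1 weight per group, which lets the siSCD#2 libraries vary more than the rest, 915, 1026, 325 and 570 held it.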

How the data were processed

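Libraries were made with a 3′ tag kit (QuantSeq Forward), per the labels' protocols. The authors deposited log2 values per gene. STAR, edgeR and hg38 are named in the submitters' processing notes, without versions. The values were log2 CPM with a prior count of 0.25, from which whole reads were recovered to within 9.29e-07 of a read. Spike-in rows and the Mitf-FLAG row were left out. limma 3.58.1 (R 4.3.3; lmFit, contrasts.fit and eBayes with a trend, two-sided) was fitted to 13364 genes in all 24 libraries of the table (IGR37 and 501mel), with 1 coefficient per group and Benjamini-Hochberg adjustment over all genes. The filter (log2 value above 0 in at least 3 libraries) removed 0 genes. Opposed genes were called in both effects and in the difference. The siSCD#1 table (13066 genes) was fitted alone. The script was tested on simulated data.

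Members and gene lists were chosen with earlier results of these data known. Named genes are SCD, MITF, ATF4 and AXL, then, at or above the median level, the 10 opposed genes with the largest difference each way, the 10 with the largest smaller effect each way among shared genes, and the 8 largest differences each way among the rest. From each list come the 4 members with the smallest adjusted p of the difference and the 2 with the largest shared effect. Other genes named were chosen after their values were seen. The third siSCD#2 library bears the number 13 in its label and 3 in the table, and was placed by its group. Positions are from the GENCODE annotation of hg38 and promoters from RefSeq. Of 13 mitochondrially encoded transcripts 0 were measured. Alternatives were other libraries in the fit, no variance trend, 1 weight per group, filters, a pseudocount of 1, quantile and median scaling, voom on recovered reads, the replicate block and leaving out each library. Some genes are not reported here.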

Additional observations from a re-analysis of the deposited data

Results flagged for a closer look

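The difference of effects was also formed in 501mel and set against that in IGR37, by the test of the difference itself (limma, IGR37 minus 501mel). It was higher in IGR37 in 1412 genes (10.6%) and lower in 1892 (14.2%). In 501mel the inhibitor called 31 genes higher and 8 lower. The opposed genes named below were chosen for the size of their difference in IGR37, which enters this contrast. Its sign and calls in them follow in part from that choice and are no separate evidence of a difference between lines.

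Among genes named above that rose with SCDi and fell with siSCD#2 in IGR37, the difference of effects was higher in IGR37 by 3.65 in SERINC2, 3.47 in FAM131A, 3.34 in PIM1, 3.19 in LARP6, 2.97 in AZIN2, 2.35 in OCRL, 1.75 in TNNT1 and 1.00 in HIPK2. PIM1 had a difference of 3.26 ± 0.29 in IGR37 and -0.08 ± 0.29 in 501mel, and HIPK2 2.57 ± 0.23 in IGR37 and 1.57 ± 0.23 in 501mel. SCD and MYADM were not called in this contrast (0.15 and 0.26, adjusted p = 0.775 and 0.561). ATF4, which rose in both arms of IGR37, was higher by 1.49.

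Among genes that fell with SCDi and rose with siSCD#2, it was lower in IGR37, with IGR37 minus 501mel at -6.04 in NFATC2, -3.76 in PIK3R3, -3.63 in TMX4, -3.43 in MARCKSL1, -3.31 in PI15, -2.81 in ITGA6, -2.62 in ID1, -2.37 in NCALD, -2.15 in CHL1 and -2.02 in S100B. The difference of effects was -5.997 ± 0.27 in IGR37 and 0.05 ± 0.27 in 501mel for NFATC2, and -3.65 ± 0.13 in IGR37 and -1.63 ± 0.13 in 501mel for S100B. The MITF contrast of lines was -0.11 (adjusted p = 0.656).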

How the results depend on the processing

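Counts over all genes and over the 4 classes stayed within 1.5 times their value with 2 exceptions. In the control contrast 567 to 1048 genes were higher with 1 library left out (567 without siCTR replicate 3), against 863. Of the genes lower in both, siSCD#1 raised 20, and 13 with only its 6 libraries in the fit or with no variance trend. The difference of effects was higher in 2299 to 2910 and lower in 2516 to 2885 genes over the alternatives, and higher in 2205 to 2535 and lower in 2498 to 2855 with 1 library left out. Over the named genes, 228 of 13119 refitted effects lost their call, 90 gained one and none changed sign while called. Calls lost with 1 library left out are given beside the genes described. Calls that changed in the other settings are given for some of them only. The cause was not tested. Scaling moved the share of rises among the inhibitor's calls between 42.4% and 49.5%.

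Same-numbered libraries did not deviate together (15 pairs, correlations -0.038 to 0.038, 0 above 0.1), so the numbers are not taken as pairs. With the replicate number as a block, the inhibitor raised 2890 and lowered 3192 genes, siSCD#2 raised 2633 and lowered 2505, the difference was higher in 2299 and lower in 2516, the shared classes held 937 and 975 genes, the opposed classes 351 and 632, and the control contrast 889 and 1198. In the gene lists, counts that moved further are given beside them. Depth limits genes such as AXL, with 9 reads or fewer in a group, whose call depended on the setting.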

Other observations

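Further lists, not described above, are given with their counts, some of which are near the shares over all genes tested. Over all genes, SCDi raised 20.9% and lowered 23.1%, and siSCD#2 raised 23.2% and lowered 22.7%. Of all genes 7.96% were higher in both and 8.69% lower in both. Opposed were 2.93% with SCDi higher and 4.97% with SCDi lower. In the MAPK pathway output, 6 of 19 rose and 1 fell with SCDi (median 0.40), and 13 rose and 2 fell with siSCD#2 (median 0.92). SPRY2, a feedback inhibitor of receptor signalling, rose in both and more with siSCD#2 (1.19 ± 0.17 with SCDi and 2.30 ± 0.17 with siSCD#2). DUSP6, a phosphatase of ERK, stood at 5.76, 5.88 and 5.78 log2 CPM with SCDi and 6.63, 6.70 and 6.49 with DMSO, and at 7.21, 7.07 and 7.64 with siSCD#2 and 5.35, 5.49 and 5.18 with siCTR. Its groups were apart in both arms in opposite directions (-0.80 ± 0.12 with SCDi and 1.96 ± 0.12 with siSCD#2; difference -2.76 ± 0.17, limma adjusted p = 3.25e-12). Heat shock genes of cytosol and mitochondria fell in 14 and rose in 3 of 22 with SCDi (5 rises under quantile normalization or with 1 weight per group), and fell in 6 and rose in 6 with siSCD#2. HSPA8, the constitutive HSP70 chaperone, was opposed (-1.90 ± 0.13 with SCDi and 0.65 ± 0.13 with siSCD#2), and STIP1, its cochaperone, fell in both (-0.72 with SCDi and -0.99 with siSCD#2). Of 23 NRF2 and oxidative stress genes, 15 rose and 1 fell with SCDi, and 10 rose and 5 fell with siSCD#2. SRXN1, which repairs peroxiredoxins, had 1.77 ± 0.11 with SCDi and 1.63 ± 0.11 with siSCD#2, and TALDO1 of the pentose phosphate pathway was opposed (0.31 with SCDi and -0.68 with siSCD#2).

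Of 28 genes of autophagy and lysosome, 10 rose and 5 fell with SCDi, and 14 rose and 4 fell with siSCD#2. GABARAPL1, an autophagosome protein, rose in both (1.33 with SCDi and 1.49 with siSCD#2), while the lysosomal membrane protein LAMP1 was opposed (-0.67 with SCDi and 0.73 with siSCD#2). Of 19 p53 targets and cell death genes, 8 rose and 2 fell with SCDi, and 10 rose and 4 fell with siSCD#2. GADD45A, a growth arrest gene, rose in both (2.43 with SCDi and 2.20 with siSCD#2), and BCL2L11, the cell death gene BIM, was opposed (-1.33 with SCDi and 1.29 with siSCD#2). Of 30 genes of hypoxia and glycolysis, 7 rose and 14 fell with SCDi, and 8 rose and 9 fell with siSCD#2 (14 fell under quantile normalization). VEGFA, the angiogenic factor, rose in both (2.34 with SCDi and 1.13 with siSCD#2), and LDHA, lactate dehydrogenase A, fell in both (-1.20 with SCDi and -0.97 with siSCD#2). Of 16 YAP-TEAD targets, 5 rose and 3 fell with SCDi, and 8 rose and 2 fell with siSCD#2 (5 rose with 1 weight per group).

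Genes that bear on siRNA transfection were looked at as well. Of 11 genes of the siRNA machinery and double-stranded RNA sensing, 2 rose and 4 fell with SCDi, and 2 rose and 1 fell with siSCD#2. DICER1, which processes double-stranded RNA, stood at 3.98, 3.74 and 3.16 log2 CPM with SCDi and 5.12, 4.84 and 5.02 with DMSO, and at 4.65, 4.64 and 5.01 with siSCD#2 and 3.80, 3.70 and 3.44 with siCTR. It fell with SCDi and rose with siSCD#2 (-1.36 ± 0.17 with SCDi and 1.12 ± 0.17 with siSCD#2). Of 23 interferon response genes, 5 rose and 3 fell with SCDi (8 rises with voom or a pseudocount of 1), and 6 rose and 3 fell with siSCD#2 (3 rises without siSCD#2 replicate 1 or 3, or with the replicate block). STAT2, a factor of interferon signalling, rose in both (1.01 with SCDi and 0.52 with siSCD#2), and ISG15 fell with siSCD#2 (-0.15 ± 0.26 with SCDi and -1.70 ± 0.26 with siSCD#2; adjusted p = 0.682 for SCDi). Of 25 genes of the dedifferentiated and invasive melanoma state, 5 rose and 7 fell with SCDi (8 rises with voom or a pseudocount of 1), and 11 rose and 3 fell with siSCD#2. Of 25 genes of lipid droplets and fatty acid oxidation, 5 rose and 5 fell with SCDi, and 8 rose and 4 fell with siSCD#2. These SCDi counts are near the shares over all genes tested (20.9% higher and 23.1% lower). In the main fit, so are the rises with SCDi in the interferon and dedifferentiated lists.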
